A study of Mus musculus with 8 samples.

Results

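Runx1, Runx2 and Runx3 are genes of the RUNX transcription factor family, and Cbfb encodes their partner CBFβ. Ets1, Ets2, Fli1, Erg, Elf1 and Gabpa are genes of the ETS family. The acetylation of histone H3 at lysine 27 (H3K27ac) around these genes is described here. The 10 genes were taken by name from the 21142 protein-coding genes of the mouse RefSeq annotation (GRCm38.p6) whose strand was known. Every gene was given a window made of its annotated record plus 50 kb on either side. These windows held 97 of the 34553 H3K27ac peaks of wild-type (wt) cells and 81 of the 29902 peaks of enhancer-deleted (ΔIkE120) cells.

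P5424 is a mouse T cell precursor line that stands in for an early thymocyte stage. The study asked what an enhancer of Ikzf1, named IkE120, contributes in such cells, and removed it with CRISPR/Cas9. H3K27ac chromatin immunoprecipitation was sequenced from 1 library of wt P5424 cells and from 1 library of ΔIkE120 P5424 cells, a clone obtained by limiting dilution with the enhancer deleted on both alleles. Both lines share the P5424 background, and whether the cells used for H3K27ac had been stimulated is not stated. The deletion was studied in 1 clone, and the wt cells are not described as a clone. With 1 library a genotype, effects of the deletion, of deriving a clone and of library differences cannot be told apart. No spread between replicates exists, and no test was made.

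RUNX proteins bind DNA through the Runt domain as heterodimers with CBFβ, and in thymocytes they act in lineage commitment, Cd4 silencing and T cell receptor gene expression. ETS proteins share a winged helix-turn-helix domain that reads a GGA core, and RUNX and ETS proteins often occupy the same lymphoid enhancers, where they can bind DNA together. Vertebrate Runx genes have a distal promoter, P1, and a proximal promoter, P2, whose transcripts encode proteins with different amino termini. H3K27ac marks active promoters and enhancers.

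The cell type label was checked on promoter peaks. All 14 T precursor markers examined had a wt peak within 1 kb of the start, and 13 had one in ΔIkE120 cells, where Cd2 lacked it. Of all protein-coding genes 44.5% had such a peak in wt, 43.9% in ΔIkE120 cells and 1.11% in wt only. Among markers of other lineages, 1 of 7 B cell genes (Ebf1) had a start peak in each list. The myeloid list had 1 of 6 in wt (Mpo) and 0 in ΔIkE120 cells. The embryonic stem list had 0 of 4 in each, and the megakaryocyte and erythroid list 1 of 4 in each (Klf1). These counts are for the record start. With any annotated start the embryonic stem list had 1 of 4 in each (Pou5f1), and the other marker counts were unchanged. Of all protein-coding genes 47.5% in wt and 46.8% in ΔIkE120 cells then had a peak. The genotype was visible in the same data, since wt peaks covered 252 bp of the IkE120 element and ΔIkE120 peaks covered 0 bp.

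A peak is an interval in which the authors called enrichment over background. For each peak the deposited lists give a fold enrichment and a −log10 q, the strength of the call after correction for multiple testing. They hold no read counts, so the comparison rests on where peaks were called and how many bases they covered. Fold enrichment and −log10 q are given beside these as values of each call. Whether they are averaged over the peak is not stated, so a longer or shorter call may by itself change them. The calls, their lengths and these values all depend on sequencing depth, which is unknown, so a difference between the lists is not a measured difference in acetylation. The wt list was the larger, and the bases covered genome-wide in ΔIkE120 cells were 0.879 times those in wt cells. Of all wt peaks, 25.6% had no overlapping ΔIkE120 peak, and 13.6% of ΔIkE120 peaks had no overlapping wt peak.

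Across the 10 genes the same 7 had a peak within 1 kb of the record start in both genotypes, namely Runx1, Runx2, Runx3, Cbfb, Ets2, Elf1 and Gabpa. This is 70.0% of the genes (exact 95% interval 34.8 to 93.3%, for counting error only), beside 44.5% of all protein-coding genes in wt and 43.9% in ΔIkE120 cells, both inside that interval. None of the 10 had its start peak in wt only, beside 1.11% of all genes, and none in ΔIkE120 only, beside 0.482%. With only the stronger part of each list (−log10 q no lower than its median) the counts were 6 in wt and 5 in ΔIkE120 cells, since the Runx2 start peak dropped out of both and that of Runx3 out of ΔIkE120 alone. Ets1, Fli1 and Erg had no peak at the record start in either list.

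Covered bases in the windows summed to 74171 bp in wt and 63758 bp in ΔIkE120 cells, a ratio of 0.86. The ratio was below 1 for 9 of the 10 genes, with Fli1 the exception at 1.02, although within the record alone Runx3, Cbfb, Ets2 and Gabpa were also above 1. The median of the 10 ratios was 0.845 (range 0.633 to 1.02). Over the 15094 genes with at least 500 covered wt bases the median ratio was 0.919, and 72.5% of them were below 1. Only Runx2 was more than 1.5 fold lower in ΔIkE120 cells, 1 gene of 10 beside 9.23% of all genes, and 0 of 10 were more than 1.5 fold higher, beside 0.881%. Both counts were near their background.

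**Figure D1:**
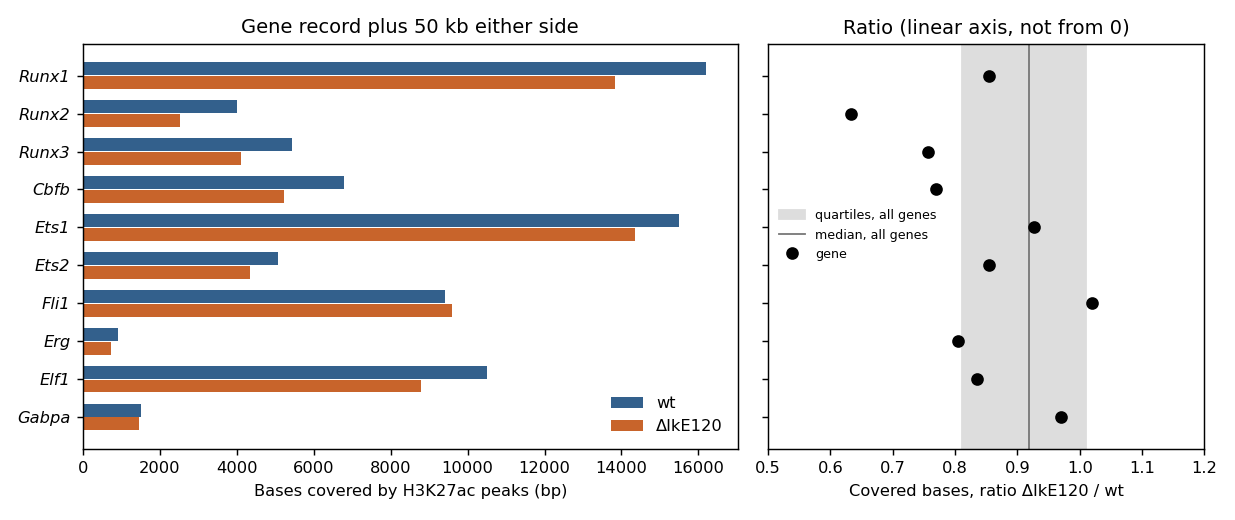
Bars give the bases (bp) covered by H3K27ac peaks in each gene record plus 50 kb either side, in wt and ΔIkE120 cells (1 library each), and points give the ΔIkE120 to wt ratio with the median and quartiles of 15094 genes. Runx2 has the lowest ratio, 0.633, and Fli1 is the gene above 1, at 1.02 (0.943 with 100 kb either side); within the record alone Runx3, Cbfb, Ets2 and Gabpa are also above 1.

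Of the 97 wt peaks, 22 had no ΔIkE120 counterpart (22.7%, exact 95% interval 14.8 to 32.3%), beside 25.6% of the whole list. Of the 81 ΔIkE120 peaks, 8 had no wt counterpart (9.88%, interval 4.36 to 18.5%), beside 13.6% of that list. Both intervals are for counting error only and treat peaks as independent, although many share a window, so they are no test of a difference. With equal numbers of top peaks the unmatched shares were 15.5% in wt and 14.8% in ΔIkE120 cells. Lists of equal size bring the whole-list shares close together by construction, so no conclusion is drawn from this smaller gap. With only the stronger part of each list the gap was wider, at 30.4% in wt and 6.06% in ΔIkE120 cells. With 50% overlap the shares were 29.9% and 16.0%. Shares of the whole lists at these other settings were not computed, so these values have no background beside them. In wt cells the median −log10 q of unmatched peaks was 2.1 and that of matched peaks 4.55. The ΔIkE120 medians were 1.72 and 4.29. Unmatched peaks of the whole lists had similar medians, 2.15 in wt and 2.04 in ΔIkE120 cells, and single unmatched peaks near Erg (4.8) and Ets2 (4.78) were above the matched wt median. The covered bases of matched peaks alone were 65592 bp in wt and 60758 bp in ΔIkE120 cells, a ratio of 0.926.

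Median −log10 q differed by position, with wide overlap. Peaks within 1 kb of an annotated start of their own gene had a median −log10 q of 9.57 in wt (12 peaks) and 10.9 in ΔIkE120 cells (11 peaks). Peaks elsewhere inside the records were the most numerous, 51 in wt and 46 in ΔIkE120 cells, and their medians were 2.83 and 3.25. Peaks at the start of another gene had medians of 4.78 and 7.12. The strongest peak of the 10 windows, in Fli1 (40.5 in wt), was among those inside a record, and start peaks went down to 1.56 in wt (Runx1) and 1.4 in ΔIkE120 cells (Runx3).

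Runx1, the DNA-binding subunit needed for definitive blood formation and for early T cell development, lies on the minus strand of chromosome 16 (record 92601466 to 92826074). Its window held 16 peaks in each genotype, which covered 16208 bp in wt and 13845 bp in ΔIkE120 cells. The covered length was lower in ΔIkE120 cells (ratio 0.854), with 32.9% of genes lower still. Of these peaks 3 were called in wt only and 2 in ΔIkE120 only.

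Both Runx1 promoters carried H3K27ac. P1 starts at 92826074, and its wt peak ran from 92824682 to 92826946, with a fold enrichment of 2.88 and a −log10 q of 9.05. In ΔIkE120 cells the P1 peak ran from 92824808 to 92826878, with a fold enrichment of 2.84 and a −log10 q of 7.51. At 2265 bp and 2071 bp these were the longest Runx1 peaks of their lists, and the ΔIkE120 call was the shorter and the weaker. P2 starts at 92697329, 128745 bp further along the gene. Its wt peak, 92697174 to 92698806, was 1633 bp long with a fold enrichment of 2.72 and a −log10 q of 10.1. The ΔIkE120 peak, 92697356 to 92698760, was 1405 bp long with a fold enrichment of 2.94 and a −log10 q of 10.9, a shorter but slightly stronger call. The ΔIkE120 peak lay wholly upstream and ended 27 bp before the P2 start, whereas the wt peak spanned it.

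Within 1 kb of P1, peaks covered 1873 bp in wt and 1805 bp in ΔIkE120 cells. Within 1 kb of P2 they covered 1480 bp in wt and 974 bp in ΔIkE120 cells. The genotypes thus differed more at P2 by extent, and a short wt-only peak (92696673 to 92696996, −log10 q 1.56) contributed to this. Both promoters had a peak in both genotypes under every window and peak threshold tried.

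Between the promoters, peaks present in both lists stood, among others, 23.8 kb, 63.2 kb and 109 kb into the gene in wt cells. The 109 kb peak was 1854 bp long in wt and 1159 bp in ΔIkE120 cells, with similar −log10 q values of 5.3 and 5.24. The peaks 63.2 and 64.5 kb into the gene lay at the start of the lncRNA gene Gm30281. Upstream of P1, a peak 40.9 kb away (92867006 to 92868447) had a −log10 q of 6.76 in wt cells and 4.95 in ΔIkE120 cells. The strongest unmatched Runx1 peaks were 92786145 to 92786701 in wt, with a −log10 q of 2.8, and 92853531 to 92854359 in ΔIkE120 cells, with a −log10 q of 1.77.

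**Figure D2:**
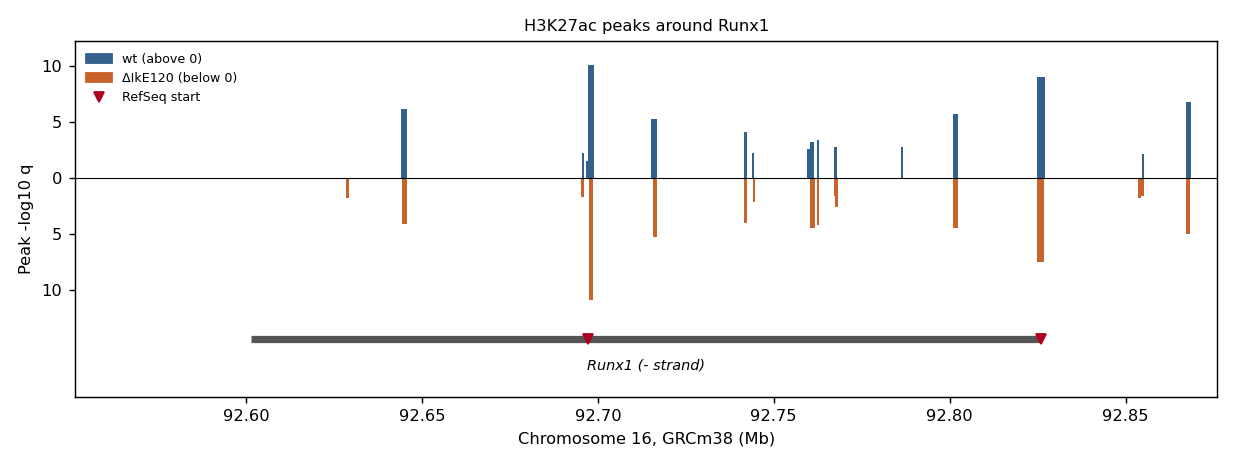
Each bar is an H3K27ac peak in the Runx1 window at its position on chromosome 16 (Mb), with its −log10 q as height, wt above 0 and ΔIkE120 below; the narrowest bars are widened to stay visible, and triangles mark RefSeq starts. Peaks at P1 (right) and P2 (middle) reach 9.05 and 10.1 in wt cells.

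Runx2, best known for bone formation and also active in early thymocytes, lies on the minus strand of chromosome 17 (44495987 to 44814797). Its window held 7 peaks covering 3994 bp in wt cells and 4 peaks covering 2529 bp in ΔIkE120 cells. The ΔIkE120 value was the lower, at a ratio of 0.633, and 7.5% of genes had a lower one. Runx2 still passed 1.5 fold within the record alone (0.597) and with 10 kb either side (0.633). It did not pass with 100 kb either side (0.705), with equal numbers of top peaks (0.688) or with the stronger part of each list (0.792).

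Little of the Runx2 acetylation was at its own start. The start peak was 261 bp long with a −log10 q of 2.86 in wt cells, and 299 bp long with a −log10 q of 1.59 in ΔIkE120 cells. Among peaks at gene starts these ranked low, with 3.44% of wt and 0.313% of ΔIkE120 start peaks weaker. The longest and strongest peak of the window belonged to the start of Supt3, a gene that overlaps Runx2 and encodes a SAGA complex subunit. It ran from 44776540 to 44777998 in wt cells, with a −log10 q of 14.1. In ΔIkE120 cells it ran from 44776672 to 44778062, with a −log10 q of 16.7, the higher value.

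The Runx2 proximal promoter was sought by distance, because among the annotations used here only GENCODE M1, on the older mm9 build, gave its position. There 18 transcripts, some of them incomplete at the 5′ end, start in separate groups, and the starts of the inner group lie between 78149 and 80104 bp from the 5′ end of a record that is 318811 bp long in both annotations. No peak of either list lay at that distance, the nearest being those at Supt3 and, in wt cells, a peak 124 kb from the 5′ end. All 3 unmatched Runx2 peaks were in wt cells, the strongest at 44655350 to 44655666 with a −log10 q of 2.96.

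Runx3, which represses Cd4 and directs the CD8 lineage, lies on the plus strand of chromosome 4 (135120645 to 135177990). Its window held 10 peaks covering 5426 bp in wt cells and 8 peaks covering 4105 bp in ΔIkE120 cells. The ΔIkE120 value was lower (ratio 0.757), although inside the record alone the ratio was 1.07 and with only the stronger part of each list it was 0.369.

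The peak near the distal Runx3 start was 328 bp long in wt cells, with a −log10 q of 4.44. In ΔIkE120 cells it was 587 bp long with a −log10 q of 1.4, so the ΔIkE120 call was the longer and the weaker. The same peak lies at the start of the lncRNA gene Gm16225. The proximal start is 31.9 kb into the gene at 135152545. Its wt peak (135153241 to 135154283, the longest of the wt window at 1043 bp) began 696 bp into the transcribed side and had a −log10 q of 4.55. The ΔIkE120 peak began 985 bp in and had a −log10 q of 2.85, again the weaker call. Within 1 kb of the proximal start, 305 bp were covered in wt and 16 bp in ΔIkE120 cells.

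The strongest Runx3 calls lay past the 3′ end of the gene. The peak 58.2 kb from the start (135178888 to 135179846) had a −log10 q of 10.5 in wt cells and 11.8 in ΔIkE120 cells. The peak 85.2 kb from the start (135205815 to 135206837) had a −log10 q of 8.64 in wt cells and 17.9 in ΔIkE120 cells. Both were shorter and stronger in ΔIkE120 cells, at 642 bp against 959 bp and at 763 bp against 1023 bp, and the 763 bp peak was the longest of the ΔIkE120 window. The strongest unmatched peaks were 135074628 to 135074959 in wt, with a −log10 q of 2.3, and 135154542 to 135154811 in ΔIkE120 cells, with a −log10 q of 1.68.

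**Figure D3:**
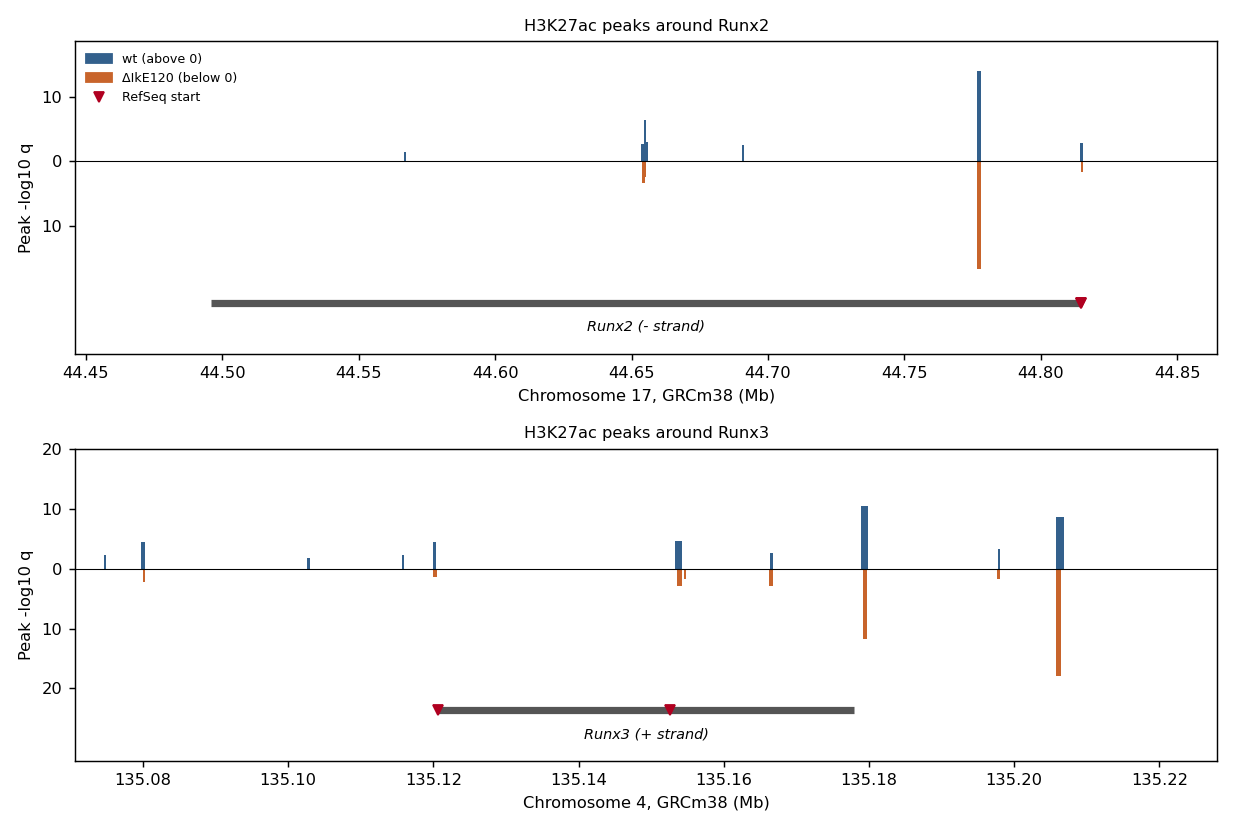
Bars are H3K27ac peaks in the Runx2 and Runx3 windows by position (Mb) and −log10 q, wt above 0 and ΔIkE120 below, with the narrowest bars widened and RefSeq starts as triangles. The highest Runx2 bars (14.1 and 16.7) stand at the Supt3 start, and the highest Runx3 bars lie downstream of the gene.

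The promoter sequences of the Runx genes are shown because the 3 distal promoters share a short sequence. The RefSeq promoter table (GRCm38.p6, 250 bp before to 50 bp after each start) held 13 promoters for 8 of the 10 genes, without entries for Ets1 and Fli1. The RUNX motif TGTGGT, read on both strands, occurred in 3 of the 13 promoters, beside 16.8% of 32851 promoters in all. These were the distal promoters of Runx1, Runx2 and Runx3. In each of them ACCACA, the same motif on the other strand, occurs at 2 places with 2 bases between. Promoters with such a same-strand pair made up 0.0213% of the table, 7 promoters of 7 genes, and 3 of those were these Runx promoters. The pair was looked for after the sequences had been seen, and a match describes letters only. Positions are counted from the start in the promoter table, which for Runx2 (44814627) lies 170 bp inside the record. In Runx1 the matches begin 28 and 36 bp after the start base, in Runx2 23 and 31 bp after it (with a further match 80 bp before it), and in Runx3 134 and 126 bp before it. Capitals mark the RUNX motif in the distal promoters of Runx1 (chr16:92826025-92826324, minus strand), Runx2 (chr17:44814578-44814877, minus strand) and Runx3 (chr4:135120395-135120694, plus strand), each written 5′ to 3′.
Runx1 P1: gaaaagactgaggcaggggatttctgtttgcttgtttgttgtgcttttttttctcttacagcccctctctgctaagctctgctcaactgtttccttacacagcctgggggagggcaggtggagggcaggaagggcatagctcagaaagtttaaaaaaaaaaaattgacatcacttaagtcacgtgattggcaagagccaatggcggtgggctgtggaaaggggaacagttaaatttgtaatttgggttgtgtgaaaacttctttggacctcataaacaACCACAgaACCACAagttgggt
Runx2 distal promoter: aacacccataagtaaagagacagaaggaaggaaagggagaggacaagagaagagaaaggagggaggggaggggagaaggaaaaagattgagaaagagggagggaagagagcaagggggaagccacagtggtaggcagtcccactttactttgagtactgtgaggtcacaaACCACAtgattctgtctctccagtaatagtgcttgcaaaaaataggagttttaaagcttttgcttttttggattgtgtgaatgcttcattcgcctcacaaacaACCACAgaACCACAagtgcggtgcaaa
Runx3 distal promoter: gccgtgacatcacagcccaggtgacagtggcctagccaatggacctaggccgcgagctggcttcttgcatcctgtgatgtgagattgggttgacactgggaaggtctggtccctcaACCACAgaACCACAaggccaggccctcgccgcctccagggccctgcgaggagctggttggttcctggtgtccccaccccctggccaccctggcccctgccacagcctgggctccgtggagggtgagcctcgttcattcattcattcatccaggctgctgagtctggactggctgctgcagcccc

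The distal and proximal promoters differed in base composition. Runx1 P1 had 2 CpG dinucleotides and a GC content of 45.0%, whereas P2 had 35 CpG and 69.0% GC. The Runx3 distal promoter had 8 CpG and the proximal one 45, and the Runx2 distal promoter had 2. Over all promoters the median was 7 CpG and 52.7% GC, so both proximal promoters were CpG-rich. Runx1 P2, with the higher −log10 q of the Runx1 promoters in both genotypes, is shown with CpG in capitals (chr16:92697280-92697579, minus strand).
Runx1 P2: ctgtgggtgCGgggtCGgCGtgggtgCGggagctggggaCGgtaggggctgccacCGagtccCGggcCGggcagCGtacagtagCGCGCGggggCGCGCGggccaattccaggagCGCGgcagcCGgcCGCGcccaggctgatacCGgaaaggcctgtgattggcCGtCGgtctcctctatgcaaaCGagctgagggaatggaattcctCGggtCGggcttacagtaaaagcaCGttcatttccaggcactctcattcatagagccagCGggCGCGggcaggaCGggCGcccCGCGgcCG

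Cbfb encodes CBFβ, the partner that does not itself contact DNA and raises the affinity of RUNX proteins for it. It lies on the plus strand of chromosome 8 (105170674 to 105217989). Its start peak was 1082 bp long in wt cells, with a fold enrichment of 5.82 and a −log10 q of 33.3. In ΔIkE120 cells it was 1167 bp long, with a fold enrichment of 5.66 and a −log10 q of 31.3. Both values were alike in size and among the strongest of their lists, with 98.6% of wt and 97.4% of ΔIkE120 start peaks weaker.

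Cbfb covered bases were 6798 bp in wt (7 peaks) and 5237 bp in ΔIkE120 cells (5 peaks). The ratio was 0.77, but within the record it was 1.03 and with 10 kb either side 1.1. The longest wt peak, 105147971 to 105149179 inside Ces4a, was wt-only with a −log10 q of 3.04. The longest ΔIkE120 peak, 105264182 to 105265664, lay at the starts of Tradd and Fbxl8. No other peak lay inside the Cbfb record in either list.

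Ets1, which acts in thymocyte and NK cell development, had the most densely covered window of the 10 genes. It lies on the plus strand of chromosome 9 (32636241 to 32757820), and peaks covered 15504 bp in wt and 14358 bp in ΔIkE120 cells, or 7.0% and 6.48% of the window. The share of all genes with a lower coverage was 94.3% in wt and 94.4% in ΔIkE120 cells. The ratio was 0.926, close to the median gene, and was 1.04 when equal numbers of top peaks were compared.

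The record start of Ets1 had no peak within 1 kb. The nearest peak was 5.29 kb upstream in wt cells (32630284 to 32630947, −log10 q 3.75), lay at the start of the lncRNA gene Gm31928 and was the strongest unmatched wt peak of the window. In ΔIkE120 cells the nearest was 19.2 kb away. The longest wt peak lay inside the record, from 32695415 to 32697686, with a −log10 q of 8.57. Its ΔIkE120 counterpart, 32695464 to 32697337, was shorter at 1874 bp against 2272 bp and had a −log10 q of 9.42. These peaks covered the stretch from 59174 to 61445 bp into the record in wt and from 59223 to 61096 bp in ΔIkE120 cells. In GENCODE M1, 3 of 4 Ets1 transcripts start 59821 bp into a record of 121600 bp, against 121580 bp in RefSeq. The distances were compared without converting coordinates between builds.

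Upstream of Ets1, a 1845 bp wt peak 27.2 kb away had a −log10 q of 9.61, and its ΔIkE120 counterpart, at 1984 bp the longest ΔIkE120 peak of the window, had 6.7. The strongest Ets1 peak was 42.9 kb upstream (32592130 to 32593312), with a −log10 q of 20.3 in wt cells and 14.0 in ΔIkE120 cells, the lower value. It lies between Ets1 and Fli1 and falls in both windows. Inside Ets1, a peak 35.4 kb from the start had a −log10 q of 11.5 in wt cells and 10.4 in ΔIkE120 cells. The strongest ΔIkE120-only peak, 32802756 to 32802966, had a −log10 q of 2.44.

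Ets2, the closest relative of Ets1 and a target of Ras/MAP kinase signaling, lies on the plus strand of chromosome 16 (95702407 to 95721049). Its window held 6 peaks covering 5071 bp in wt and 5 covering 4335 bp in ΔIkE120 cells. The ΔIkE120 value was lower (ratio 0.855), except that within the record the ratio was 1.13 and with 10 kb either side 1.11. The start peak had a −log10 q of 18.6 in wt cells and 18.3 in ΔIkE120 cells, over 1371 bp and 1516 bp. The longest wt peak was downstream (95749361 to 95751009), with a −log10 q of 10.1, and 9.36 in ΔIkE120 cells. At the start of the lncRNA gene Gm31845, 34.9 kb upstream, a wt-only peak (95667256 to 95667536) had a −log10 q of 4.78. The only ΔIkE120-only peak, 95770663 to 95771153, had a −log10 q of 3.09.

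Fli1, an ETS factor of hematopoietic progenitors, megakaryocytes and endothelium, lies on the minus strand of chromosome 9 (32422204 to 32543432), head to head with Ets1. It held the strongest peak of all 10 genes. In wt cells this peak ran from 32540040 to 32541465, with a fold enrichment of 3.86 and a −log10 q of 40.5. In ΔIkE120 cells it ran from 32539976 to 32541452, with a fold enrichment of 3.96 and a −log10 q of 38.2. Both were near the top of their lists, with 99.9% of wt and 99.8% of ΔIkE120 peaks weaker, and both were the longest Fli1 peaks.

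This peak began 1967 bp into the Fli1 record in wt and 1980 bp in ΔIkE120 cells, and therefore was not counted at the start. The RefSeq record is 121229 bp long, whereas the GENCODE M1 record, with 1 transcript, is 119182 bp. Measured from the 3′ end of the RefSeq record, the upstream edge of the peak lay at 119261 bp in wt and 119248 bp in ΔIkE120 cells, close to the length of the M1 record. With 2.5 kb either side of the start, the count of genes with a start peak was 8 in each list.

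Fli1 covered bases were 9411 bp in wt (17 peaks) and 9582 bp in ΔIkE120 cells (14 peaks). It was the gene with a higher value in ΔIkE120 cells, at a ratio of 1.02, with 76.5% of genes lower, though with 100 kb either side the ratio was 0.943. All 4 unmatched peaks were in wt cells, the strongest (32487393 to 32487623) with a −log10 q of 2.68. A run of peaks inside the gene, joined where gaps were at most 12.5 kb, spanned 34.8 kb with 12 peaks in wt and 33.9 kb with 11 peaks in ΔIkE120 cells. By covered bases, 5887 bp and 6636 bp, this run ranked 196 of 18382 in wt and 90 of 16720 in ΔIkE120 cells.

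**Figure D4:**
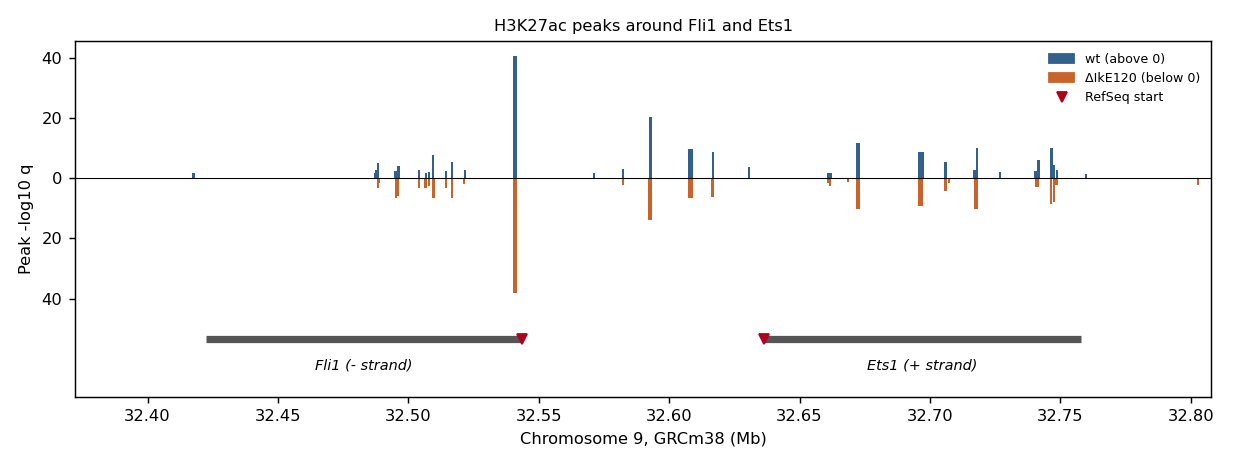
Bars are H3K27ac peaks across Fli1 and Ets1 on chromosome 9 (Mb) by −log10 q, wt above 0 and ΔIkE120 below, with the narrowest bars widened and the record starts as triangles. The highest bars (40.5 and 38.2) stand 1967 and 1980 bp inside Fli1, and the peak between the genes reaches 20.3 in wt and 14.0 in ΔIkE120 cells.

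Erg, the close relative of Fli1 that maintains hematopoietic stem cells and is switched off as T cells commit, had few called peaks. Its window on the minus strand of chromosome 16 (record 95359169 to 95586600) held 2 peaks in each list, covering 919 bp in wt and 740 bp in ΔIkE120 cells. These are 0.281% and 0.226% of the window, the lowest of the 10 genes, and 28.2% of all genes in wt and 28.7% in ΔIkE120 cells had a lower coverage. None of its annotated starts had a peak within 1 kb, and the nearest approach was 28.1 kb in wt and 29.4 kb in ΔIkE120 cells. The matched peak was 95488725 to 95489286 in wt (562 bp, −log10 q 4.63) and 95488763 to 95489169 in ΔIkE120 cells (407 bp, −log10 q 2.78). A wt-only peak, 95487411 to 95487767, had a −log10 q of 4.8, the highest of any unmatched peak in the 10 windows. The ΔIkE120-only peak, 95401771 to 95402103, had a −log10 q of 1.61. With only the stronger part of each list, both wt peaks of Erg stayed and neither ΔIkE120 peak did. In that setting Erg was more than 1.5 fold lower in ΔIkE120 cells.

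Elf1, an ETS factor expressed through the T lineage, lies on the plus strand of chromosome 14 (79481174 to 79582491). Its window held 13 peaks covering 10516 bp in wt and 10 covering 8780 bp in ΔIkE120 cells, the lower value at a ratio of 0.835. The start peak, shared with the divergent gene Wbp4, had a −log10 q of 19.7 in wt cells and 17.5 in ΔIkE120 cells. A further start, 34.5 kb into the gene at 79515674, had a peak 37 bp from it in wt (526 bp, −log10 q 4.49) and 60 bp from it in ΔIkE120 cells (573 bp, −log10 q 4.32). Both Elf1 starts were thus marked in both genotypes, the first far more strongly.

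The longest Elf1 peak lay past the inner start, from 79521203 to 79523448 in wt, with a −log10 q of 6.8. In ΔIkE120 cells it ran from 79521244 to 79523372, with a −log10 q of 5.45. The joined run around it ranked 233 of 18382 by covered bases in wt and 284 of 16720 in ΔIkE120 cells. The strongest wt peak of the window, −log10 q 24.4, was at the start of the neighbor Sugt1, where the ΔIkE120 peak had 18.6. The strongest unmatched peak, 79601150 to 79601872 in wt, had a −log10 q of 1.98, and no ΔIkE120 peak was unmatched.

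Gabpa encodes the DNA-binding subunit of GABP, an ETS factor of housekeeping and mitochondrial genes that also acts at Il7r in T cells. It lies on the plus strand of chromosome 16 (84834891 to 84863783) and shares its promoter region with Atp5j. Its window held 2 peaks in each list, covering 1507 bp in wt and 1462 bp in ΔIkE120 cells, which are similar values (ratio 0.97, and 1.05 within the record). The longer peak had a −log10 q of 21.6 in wt (975 bp) and 21.9 in ΔIkE120 cells (1024 bp). The shorter had 12.8 (532 bp) and 12.4 (438 bp). Both peaks flank the record start, no other peak was called in the window, and none was unmatched.

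The ETS motif CCGGAAG, read on both strands, occurred in 1 of the 13 promoters, beside 8.86% of all promoters. That promoter was the one of Gabpa, itself an ETS gene, which is shown with the motif in capitals, as CTTCCGG on the other strand. It lies 93 bp before the start in the promoter table (84835124), which is itself 233 bp inside the gene record (chr16:84834874-84835173, plus strand).
Gabpa promoter: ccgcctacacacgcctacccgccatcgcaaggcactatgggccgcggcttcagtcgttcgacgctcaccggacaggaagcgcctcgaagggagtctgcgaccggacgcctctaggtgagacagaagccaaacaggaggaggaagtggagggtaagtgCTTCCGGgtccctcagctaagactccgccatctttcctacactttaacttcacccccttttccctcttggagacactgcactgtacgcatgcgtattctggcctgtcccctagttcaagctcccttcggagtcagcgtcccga

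Further family members and partners were counted in the same way. Of 20 further ETS genes 19 were analysed, and 8 had a start peak in each list, namely Elf2, Elf4, Elk1, Elk3, Elk4, Erf, Etv3 and Etv6, beside the 44.5% (wt) and 43.9% (ΔIkE120) of all genes. None had a start peak in 1 list only. For the 15 with at least 500 covered wt bases the median ratio was 0.927, and 0 were past 1.5 fold in either direction, beside 9.23% of all genes lower and 0.881% higher. Of 12 partner genes, among them the GABPβ subunits, Groucho-related Tle corepressors and the coactivators Ep300 and Crebbp, 6 had a start peak in each list, beside the same 44.5% and 43.9%. With any annotated start 8 partner genes had one in each list, beside 47.5% of all genes in wt and 46.8% in ΔIkE120 cells. The median ratio of the partner genes was 0.895 over 9 genes, and 0 were past 1.5 fold, beside the same 9.23% and 0.881%. Among the lineage markers, the embryonic stem gene Nanog was past 1.5 fold, with 1094 bp covered in wt and 652 bp in ΔIkE120 cells. It was 1 of 2 embryonic stem genes with at least 500 covered wt bases, beside 9.23% of all genes lower. None of the 14 T precursor, 6 B cell, 4 myeloid and 3 megakaryocyte and erythroid genes with that coverage was past 1.5 fold.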

How the data were processed

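H3K27ac peaks of wt and ΔIkE120 P5424 cells (1 library each) were used as deposited, and the 4C files were not used. The submitters' processing notes name Bowtie2 2.3.4.3, Bowtie 1.0.0, MACS2 2.1.1 and deepTools 3.2.1, and the GRCm38 build. In the deposited lists the authors give a score, a fold enrichment (a ratio), a −log10 p-value and a −log10 q-value per peak. Depth is unknown, so no interval that needs it is given.

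Computations used matplotlib 3.10.9 for figures and scipy 1.17.1, pandas 2.3.3 and numpy 2.4.6 under Python 3.11.15. Windows were RefSeq records plus 50 kb either side, starts were the 5′ ends of the records, and 1 shared base counted as overlap. Strand came from the RefSeq promoter table for 17492 genes and from GENCODE M1 by symbol for 3650. The build was checked by start peaks, which 44.5% of GRCm38 and 7.98% of mm9 starts had in wt cells. The code was tested on simulated data. The genes and lists were chosen with earlier results of these data known. Named were all 10 genes, listed genes with a start peak in 1 list only or past 1.5 fold, the longest peak per gene and list, and each gene's strongest unmatched peak per list; other peaks named were chosen after their values were seen. Alternatives were other windows, other start distances, any annotated start, 50% overlap, a fold of 2, a minimum of covered bases in either list, only the stronger part of each list (−log10 q no lower than its median), and equal numbers of top peaks.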

Additional observations from a re-analysis of the deposited data

How the results depend on the processing

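The count of genes more than 1.5 fold lower in ΔIkE120 cells, 1 as reported, was 0 with 100 kb either side, 0 with a fold of 2, 0 with equal numbers of top peaks and 2 when only the stronger part of each list was kept (−log10 q no lower than its median). The last 2 of these settings were chosen for this count after seeing the data, and so were a minimum of covered bases in either list and all settings for the Runx1 promoters. The cause of these differences was not tested. The start-peak counts ranged from 6 to 8 in wt and from 5 to 8 in ΔIkE120 cells, and differed between genotypes in 1 setting, the stronger part of each list (6 and 5). The median ratio ranged from 0.844 to 0.996. The unmatched share ranged from 15.5 to 30.4% in wt and from 6.06 to 16.0% in ΔIkE120 cells. As reported it was 22.7% in wt and 9.88% in ΔIkE120 cells. With 50% overlap the shares were 29.9% and 16.0%. With the stronger part of each list they were 30.4% and 6.06%, a wider gap, and with equal numbers of top peaks 15.5% and 14.8%. Whole-list shares at the alternative settings were not computed. Lists of equal size bring the whole-list shares close together by construction. Of 49 alternative ratios of single genes, 48 were within 1.5 times the reported one and 41 were on the same side of 1. The exception was Runx3, at 0.369 with the stronger part of each list. Erg is not among the 49, because in that setting it had 919 bp covered in wt and 0 bp in ΔIkE120 cells; it is the other of the 2 genes past 1.5 fold there and enters that setting's median, 0.844, as 0. No paired analysis was possible because each genotype had 1 library.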
